A study of Mus musculus with 48 samples.

Results

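*Elf5*, *Eomes*, *Cdx2*, *Tfap2c*, *Gata3*, and *Hand1* are transcription factor genes of the trophoblast, the lineage that forms the fetal part of the placenta. The genes were chosen by name, and all 6 were found among the 24264 transcripts of a count table of mouse reprogramming to induced pluripotent stem cells (iPSCs). They were followed through 48 libraries from 20 conditions, with 3 libraries for each of 8 sorted populations and 2 libraries for each of 12 other conditions. RNA was sequenced from the 5′ end of transcripts with the STRT method, and levels are given as CPM, the reads of a gene in every 1000000 reads on transcripts of the library.

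Transgenic mouse embryonic fibroblasts (MEFs) of 129 background were taken at E12.5 from chimeric embryos made with TNG embryonic stem cells (ESCs), which carry GFP in the *Nanog* gene. A doxycycline-inducible cassette had been placed in the *Sp3* gene of these ESCs. The MKOS and OKMS cassettes encode the same factors, c-Myc, Klf4, Oct4, and Sox2, in the order of their letters, and OKMS carries a shorter Klf4 that lacks N-terminal residues. The sorted cells came from day 10 of reprogramming according to the design text of the series. The protocol field of the samples allows 10 or 15 days with doxycycline and vitamin C. CD44 low cells were sorted as ICAM1 low Nanog-GFP- (2NG-), ICAM1 high Nanog-GFP- (3NG-), or ICAM1 high Nanog-GFP+ (3NG+). OKMS 2NG- and 3NG- cells were further split by E-cadherin into E-CAD+ and E-CAD-, and all other sorted cells were E-CAD+. The other conditions were wt, MKOS, and OKMS MEFs, MKOS and OKMS iPSCs kept without doxycycline (-dox) or in 2i, the iPSC line D6, and the ESC lines TNG, TNG MKOS, TNG OKMS, and E14. The cassette lines derive from targeted ESC clones, transgenic MEFs were mixed with wt MEFs for reprogramming, and the labels do not say that replicates are separate cultures.

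In the mouse embryo, *Cdx2*, *Gata3*, and *Tfap2c* act in the trophectoderm, the outer layer of the blastocyst, and *Eomes* and *Elf5* act with them to keep trophoblast stem cells dividing. *Hand1* drives the formation of trophoblast giant cells. None of these genes is used by the trophoblast alone: *Elf5* is expressed in mammary and other epithelia, *Eomes* in the primitive streak, *Cdx2* in the gut, *Tfap2c* in surface ectoderm and germ cells, *Gata3* in T cells and ectoderm, and *Hand1* in mesoderm. For this reason, markers of the streak, of surface epithelium, and of germ cells were measured beside them.

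Libraries held 1429717 to 14174725 reads on transcripts, and 3 reads, the floor used here, corresponded to 0.212 to 2.10 CPM. *Cdh1*, the gene of E-cadherin, followed the E-cadherin gate. It was at 62.6 to 182 CPM in E-CAD+ sorted cells, 4.24 to 51.5 CPM in E-CAD- cells, and at most 0.687 CPM in MEFs. *Icam1* was at 0 to 4.34 CPM in 2NG- and 5.18 to 23.8 CPM in 3NG- cells. *Cd44* was not below wt MEFs in every CD44 low population. It was at 135, 125, and 9.18 CPM in OKMS E-CAD+ 3NG- cells and 159, 145, and 96.1 CPM in OKMS E-CAD- 3NG- cells. The level was 119 and 65.4 CPM in wt MEFs and 252 and 362 CPM in OKMS MEFs. *Col1a1*, a fibroblast collagen gene, was at 547 to 881 CPM in MEFs and 15.2 to 251 CPM in the E-CAD+ Nanog-GFP- cells and was not above 9.31 CPM in iPSCs or 1.84 CPM in ESCs. It was at 17.2 to 180 CPM in 3NG+ cells. The replicate 3 libraries of the OKMS Nanog-GFP- populations stood apart in *Eomes* and streak genes, as described with *Eomes*. These libraries, replicate 3 of the MKOS 2NG- and 3NG- cells, and OKMS 3NG+ replicate 2 are the 7 libraries that do not enter the averages in the study's supplementary expression table, and results that rest on them are given with and without them. In bulk RNA, fewer cells of a type cannot be told apart from less RNA per cell.

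The windows of 250 bases before the transcription start are shown for *Elf5*, *Eomes*, and *Cdx2*, since the cassettes encode DNA-binding factors. RefSeq windows of GRCm38.p6 were matched for 4 of the 6 genes, and *Elf5* had 2 starts. Capitals mark exact matches on either strand to ATGCAAAT (the octamer of POU factors such as Oct4), CATTGT (a SOX core), CACCC (a KLF core), and CACGTG (the E-box of Myc). No one of these sequences contains another. Sequences run 5′ to 3′ on the strand of the gene.
*Elf5*, first start, chr2:103411848-103412097, + strand: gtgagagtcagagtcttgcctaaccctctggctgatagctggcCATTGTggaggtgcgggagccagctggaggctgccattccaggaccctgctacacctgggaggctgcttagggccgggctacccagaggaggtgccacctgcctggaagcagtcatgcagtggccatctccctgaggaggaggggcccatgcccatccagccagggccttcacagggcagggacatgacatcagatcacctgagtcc
*Elf5*, second start, chr2:103423818-103424067, + strand: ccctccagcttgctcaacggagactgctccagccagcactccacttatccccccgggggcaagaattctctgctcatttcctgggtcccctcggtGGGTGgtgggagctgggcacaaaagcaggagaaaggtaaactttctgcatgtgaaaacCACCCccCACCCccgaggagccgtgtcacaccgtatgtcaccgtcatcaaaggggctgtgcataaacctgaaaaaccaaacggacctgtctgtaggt
*Eomes*, chr9:118477939-118478188, + strand: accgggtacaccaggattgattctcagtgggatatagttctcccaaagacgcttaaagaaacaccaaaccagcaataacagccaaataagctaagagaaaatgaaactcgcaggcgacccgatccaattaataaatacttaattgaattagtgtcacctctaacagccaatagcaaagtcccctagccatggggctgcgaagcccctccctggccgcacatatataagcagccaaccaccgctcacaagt
*Cdx2*, chr5:147307250-147307499, - strand: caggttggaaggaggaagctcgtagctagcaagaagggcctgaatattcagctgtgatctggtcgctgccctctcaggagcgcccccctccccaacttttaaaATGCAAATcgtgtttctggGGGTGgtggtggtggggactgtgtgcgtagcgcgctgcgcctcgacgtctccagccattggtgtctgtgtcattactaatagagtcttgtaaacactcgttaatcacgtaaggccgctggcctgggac
The position recorded for *Elf5* in the count table, base 103411997 of chromosome 2, lies in the window of the first start. That position is a fixed coordinate of the transcript and does not show at which start its reads began. The window of the first start held 2 CpG dinucleotides, against a median of 6 in the 32851 windows. It also held 1 SOX core, a match found in 10.7% of all windows. The window of the second *Elf5* start held 8 CpG and 3 KLF cores, and 52.0% of all windows held at least 1 KLF core. The *Eomes* window held 8 CpG and no match to these 4 sequences. The *Cdx2* window held 13 CpG, 1 KLF core, and the octamer, which 1.6% of all windows held, and the E-box, present in 6.02% of windows, was in none of the windows shown.

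*Elf5* (chr2:103412098-103450989, + strand, GRCm38.p6) was detected almost exclusively in E-CAD+ cells that had not gained Nanog-GFP. It had 676 of its 696 reads in the 12 libraries of these populations, all of which held reads of the gene. In OKMS E-CAD+ 2NG- cells the level was 23.5, 26.1, and 3.10 CPM in replicates 1 to 3, and in OKMS E-CAD+ 3NG- cells it was 8.03, 16.4, and 5.89 CPM. In MKOS 2NG- cells it was 6.22, 3.40, and 3.12 CPM, and in MKOS 3NG- cells 1.12, 6.14, and 8.34 CPM. All 6 MEF libraries were at 0. Reads of *Elf5* were found in 2 of 6 libraries of E-CAD- cells, at 2.09 CPM in 2NG- replicate 1 and 0.349 CPM in 3NG- replicate 2. They were found in 2 of 6 libraries of 3NG+ cells, at 0.699 and 0.411 CPM, in 1 of 10 iPSC libraries, and in 2 of 8 ESC libraries, at no more than 0.176 CPM in these lines. Thus, the levels of each of the 4 E-CAD+ Nanog-GFP- populations lay above those of all MEFs, 3NG+ cells, iPSCs, and ESCs. In the order of the 20 condition means, MKOS 2NG- in the fourth place and OKMS E-CAD- 2NG- in the fifth, 4.24 ± 1.72 and 0.696 ± 1.20 CPM (SD, n = 3), were the only neighbors whose libraries did not overlap.

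**Figure D1:**
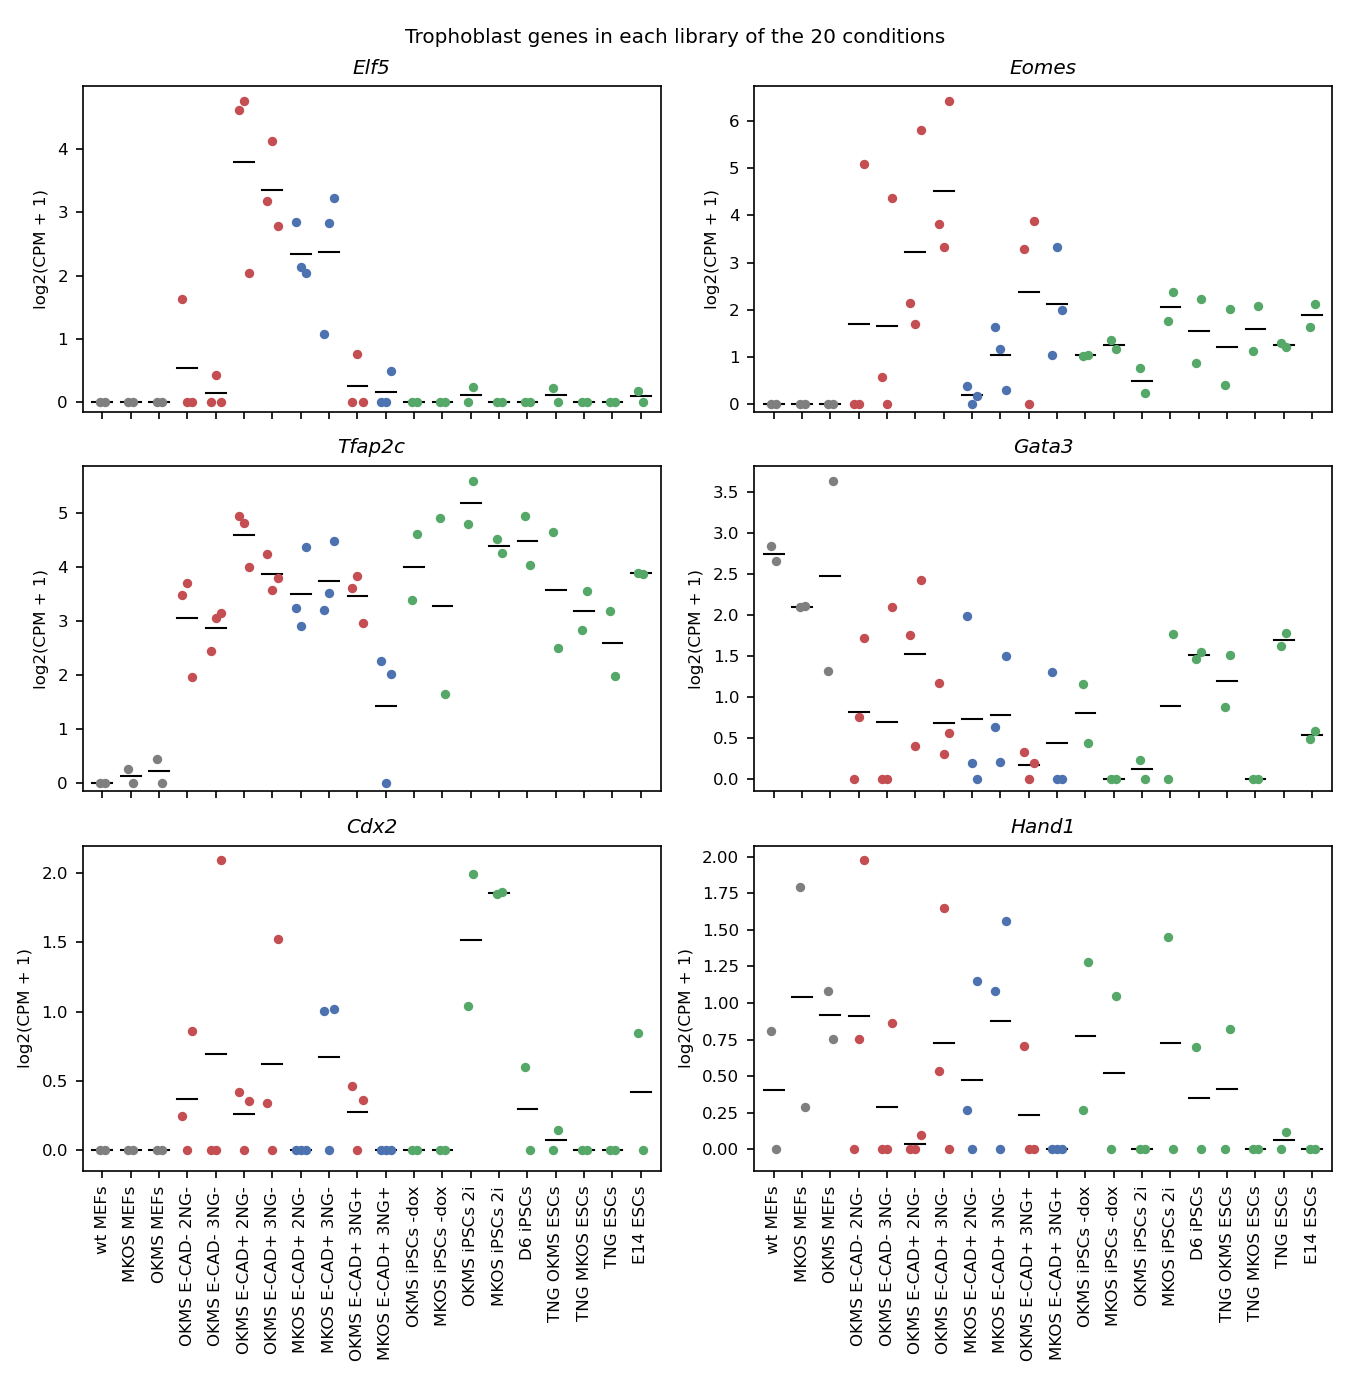
Levels of the 6 trophoblast genes in each library (points) of the 20 conditions, as log2(CPM + 1) on the vertical axis, with bars at the mean of these values. Grey marks MEFs, red OKMS sorted cells, blue MKOS sorted cells, and green iPSCs and ESCs; *Elf5* stands out in E-CAD+ Nanog-GFP- cells (1.12 to 26.1 CPM), *Tfap2c* in all but MEFs, and *Gata3* in MEFs (1.48 to 11.5 CPM).

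To ask which changes exceeded the spread between libraries, conditions were compared in pairs with edgeR's quasi-likelihood test over 15630 genes, and genes with a Benjamini-Hochberg adjusted p (FDR) of at most 0.05 were called. Several comparisons share libraries, so their counts are not independent of each other. From MKOS MEFs to MKOS 2NG- cells, 2 of the 6 genes were called, both higher, against 27.0% of all genes. From OKMS MEFs, 3 of 6 rose in E-CAD+ 2NG- cells, where 29.2% of all genes were called, and 2 of 6 rose in E-CAD- 2NG- cells, where 21.8% were called. *Elf5* was at least 20.2-fold higher in MKOS 2NG- cells than in MKOS MEFs (FDR = 0.0122) and at least 82.7-fold higher in OKMS E-CAD+ 2NG- cells than in OKMS MEFs (FDR = 0.002), with the floor of 3 reads over both MEF libraries in place of 0. The call in MKOS was lost without either MKOS MEF library, at FDR = 0.115 and 0.0825. The call in OKMS held in all 5 fits that left out 1 library. In E-CAD- 2NG- cells, *Elf5* was not called against MEFs (FDR = 0.0991), and its 11 reads all came from replicate 1.

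Within OKMS reprogramming, *Elf5* was the only one of the 6 genes called between E-CAD+ and E-CAD- cells, averaged over 2NG- and 3NG-, where 7.08% of all genes were called. Its log2 difference was 5.63 (SE 1.12, FDR = 0.00117), and it stayed called in all 12 fits without 1 library and under all 6 other settings. Markers of other cell types moved with this split. Of 6 fibroblast genes, 5 were lower in E-CAD+ cells, with a median log2 difference of -1.65 over the 6, and their summed level was 42.6 to 194 CPM in E-CAD+ and 337 to 531 CPM in E-CAD- cells. All 6 pluripotency genes were higher in E-CAD+ cells, with a median of 3.13 and summed levels of 704 to 5096 CPM against 143 to 231 CPM. Their part in the *Elf5* result was not tested. *Tfap2c* was higher in E-CAD+ cells by 1.44 on the log2 scale (SE 0.49) and was not called (FDR = 0.0698). *Elf5* did not change detectably between 2NG- and 3NG- cells, with log2 differences of 0.17 in MKOS, with 2 SE on either side reaching from -2.22 to 2.57, and -0.81 in OKMS, reaching from -3.21 to 1.59. Of the 6 genes, 0 were called from 2NG- to 3NG- by edgeR or DESeq2 in either system, against 0.39% of all genes in MKOS and 0.0384% in OKMS, and at an unadjusted p under 0.05 there was 1 (*Cdx2*) in MKOS and 0 in OKMS.

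Cells with Nanog-GFP held fewer *Elf5* reads. From OKMS 3NG- to 3NG+, *Elf5* fell by 6.48 on the log2 scale (SE 1.80, FDR = 0.0251) and was the only one of the 6 genes called, where 6.26% of all genes were called. Its 184 reads in 3NG- cells stood against 1 read in 3NG+ cells, a ratio of 153 after scaling to depth, with an exact 95% counting interval of 27.1 to 6078. Without the 7 libraries no read was left in 3NG+ cells, and the level in 3NG- cells was at least 60.8-fold higher. This call rested on few libraries: it was lost without 3NG- replicate 1 (FDR = 0.0502), 3NG- replicate 2 (0.0885), 3NG+ replicate 1 (0.145), or 3NG+ replicate 3 (0.123). In MKOS the mean fell from 5.20 to 0.137 CPM, and the libraries did not overlap, but *Elf5* was not called (log2 difference -4.58, SE 1.49, FDR = 0.107). By edgeR, 0 of the 6 genes were called from MKOS 3NG- to 3NG+, where 1.58% of all genes were called. An unadjusted p under 0.05 was found for 4, *Elf5*, *Tfap2c*, *Cdx2*, and *Hand1*, and DESeq2 called 1, *Tfap2c*.

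No difference of *Elf5* between the cassettes was called. The mean level in 2NG- cells was 4.24 CPM with MKOS and 17.6 CPM with OKMS, and the libraries overlapped through OKMS replicate 3, at 3.10 CPM. The log2 difference of MKOS from OKMS was -2.09 (FDR = 0.372) in 2NG- cells, with 2 SE on either side reaching from -4.56 to 0.39. In 3NG- cells it was -1.10 (FDR = 0.751), reaching from -3.52 to 1.31. Both intervals include 0. Without the 7 libraries, the levels of the cassettes did not overlap in 2NG- or in 3NG- cells. The means with OKMS were then 5.16-fold and 3.37-fold those with MKOS. *Elf5* was not called in either population under any of the 6 other settings, the fit without the 7 libraries among them.

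*Elf5* shared its difference between OKMS E-CAD+ and E-CAD- cells with genes of surface epithelium. Of a list of 8 such genes, 7 could be tested, and 6 were higher in OKMS E-CAD+ than in E-CAD- cells, against 7.08% of all genes called, with a median log2 difference of 3.89 against 0.01 over all genes. *Krt14* and *Krt5*, keratins of basal epithelium, were higher by 6.83 (FDR = 0.00401) and 6.57 (FDR = 0.0154) on the log2 scale, and *Ovol1*, *Grhl2*, *Cldn4*, and *Elf3*, epithelial regulators and a tight junction gene, by 5.61, 3.89, 3.23, and 2.58. The summed level of the list was 1.95 to 2.94 CPM in MEFs, 6.20 to 33.0 CPM in E-CAD- 2NG- cells, 105 to 229 CPM in OKMS E-CAD+ 2NG- cells, and 178 to 260 CPM in MKOS 2NG- cells. It was 80.8 to 191 CPM in OKMS 3NG- and 95.1 to 110 CPM in OKMS 3NG+ cells, which overlapped, and was lower in MKOS 3NG+ (56.3 to 79.3 CPM) than in MKOS 3NG- cells (133 to 175 CPM). It was 37.8 to 42.1 CPM in TNG ESCs, the lowest of the iPSC and ESC conditions. In iPSCs 2i it was 116 to 203 CPM with OKMS and 100 to 275 CPM with MKOS, and in D6 iPSCs 137 to 160 CPM. The remaining iPSC and ESC conditions were at 47.8 to 104 CPM. *Elf3* alone was at 30.1 to 45.4 CPM in OKMS 3NG+ cells. *Krt14*, with no reads in OKMS 3NG+ cells, fell from 3NG- to 3NG+ (FDR = 0.0331), as the 1 of 7 genes called there, against 6.26% of all genes. *Trp63*, the defining regulator of stratified epithelium, had 15 reads in all 48 libraries and was at most 0.726 CPM. The E-CAD+ and E-CAD- cells had been sorted on E-cadherin, an epithelial protein, so the 6 genes called between them are not independent of the sort. The part of such epithelial transcripts in the *Elf5* result was not tested.

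*Krt14* and *Elf5* did not have the same profile across replicates and cassettes. *Krt14* was at 9.54, 13.5, and 0 CPM in OKMS E-CAD+ 2NG- cells and at 159, 95.9, and 5.69 CPM in MKOS 2NG- cells. It was thus higher in replicates 1 and 2 of MKOS than in any OKMS library, whereas *Elf5* was highest in replicates 1 and 2 of OKMS. In replicate 3 of OKMS E-CAD+ 2NG- and 3NG- cells, *Krt14* had no reads while *Elf5* was at 3.10 and 5.89 CPM. Over the 20 condition means of log2(CPM + 1), the genes with the profile most like that of *Elf5* among 15629 others were *Gm5414* (Pearson r = 0.98), *Ceacam19* (0.94), and *Ly6d* (0.93). *Gm5414* itself was low, with a highest condition mean of 2.12 CPM.

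**Figure D2:**
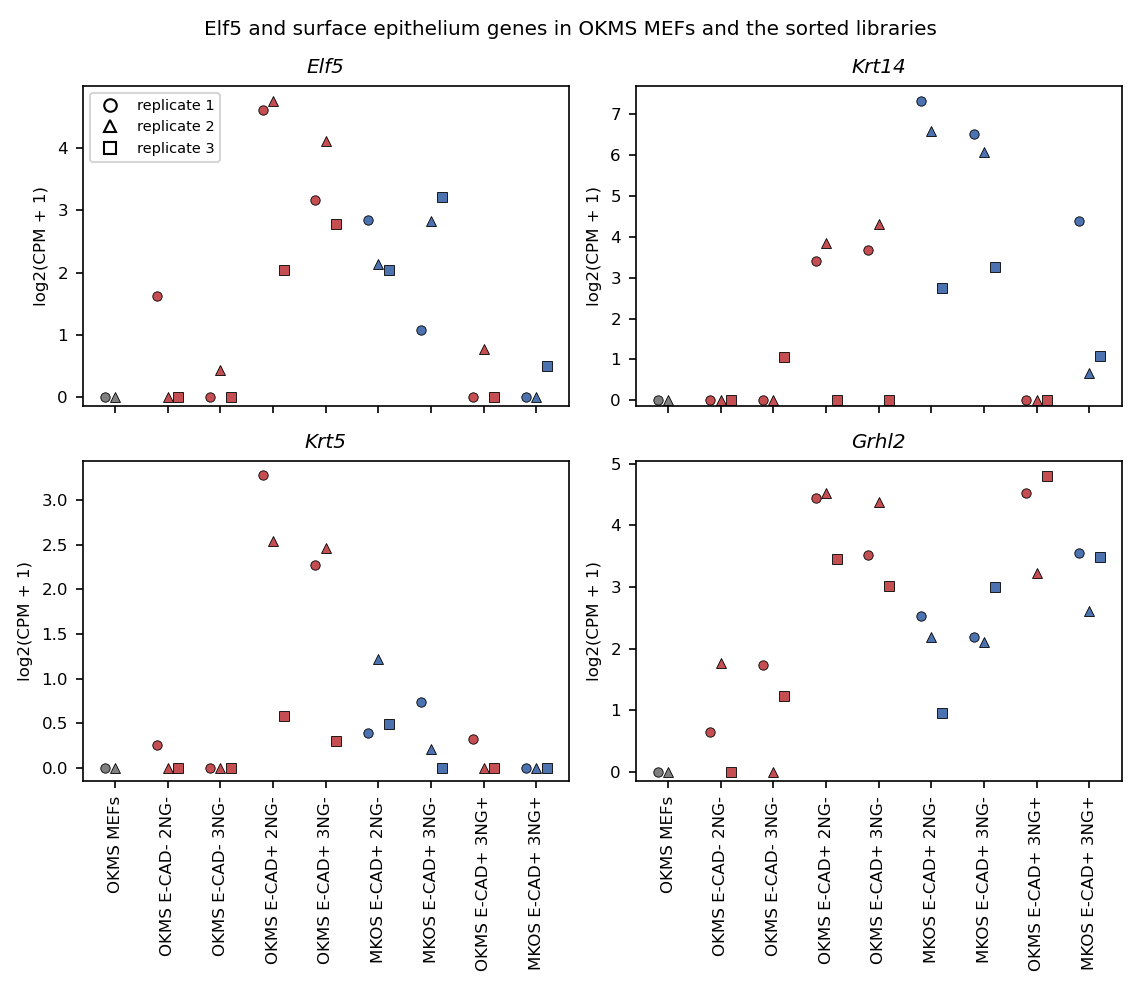
*Elf5* beside *Krt14*, *Krt5*, and *Grhl2* in OKMS MEFs (grey) and the sorted libraries, as log2(CPM + 1) on the vertical axis, with the replicate number by shape and the cassette by color (OKMS red, MKOS blue). *Elf5* is higher in E-CAD+ Nanog-GFP- cells (1.12 to 26.1 CPM) than in 3NG+ cells (at most 0.699 CPM), *Krt14* reaches its highest levels in MKOS replicates 1 and 2, and *Grhl2* remains in 3NG+ cells.

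*Eomes* (chr9:118478186-118486132, + strand), which encodes a T-box factor, was the 1 gene of the 6 that differed between the cassettes in 2NG- cells, where 5.07% of all genes were called. With OKMS it was at 3.41, 2.26, and 54.6 CPM in replicates 1 to 3 of E-CAD+ 2NG- cells, and with MKOS at 0.306, 0, and 0.135 CPM. Every OKMS library lay above every MKOS library, and the log2 difference of MKOS from OKMS was -6.99 (SE 1.81, FDR = 0.0161), a ratio of means of 136. In 3NG- cells it was at 13.0, 9.05, and 84.0 CPM with OKMS and at 2.12, 1.26, and 0.228 CPM with MKOS. These libraries did not overlap either, but the gene was not called (log2 difference -4.98, SE 1.54, FDR = 0.0812). In 3NG- cells edgeR called 0 of the 6 genes, against 2.17% of all genes, with 1 at an unadjusted p under 0.05, while DESeq2 called 1, *Eomes*, at an adjusted p of 0.0256.

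The size of the *Eomes* difference depended on OKMS replicate 3. OKMS replicate 3 held the highest level in each of the 4 Nanog-GFP- populations, and in E-CAD- cells it held nearly all of the signal, with 0, 0, and 32.9 CPM in 2NG- and 0.495, 0, and 19.6 CPM in 3NG- cells. Without OKMS E-CAD+ 2NG- replicate 3, the log2 difference of MKOS from OKMS in 2NG- cells was -4.06 (FDR = 0.237), and without the 7 libraries it was -4.04 (FDR = 0.117), a depth-scaled ratio of OKMS to MKOS of 16.6 with an exact 95% counting interval of 5.12 to 85.7. The call was also lost without MKOS replicate 1, 2, or 3, at FDR = 0.062, 0.0888, and 0.0666.

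The same libraries dominated the comparisons with MEFs, in which no *Eomes* read was found. The gene was at least 94.6-fold higher in OKMS E-CAD+ 2NG- cells (FDR = 0.00639) and at least 51.7-fold higher in E-CAD- 2NG- cells (FDR = 0.0203) than in OKMS MEFs. The E-CAD- call came from replicate 3 alone, and without it no read was left in either group, and it was also lost without OKMS MEF replicate 1 (FDR = 0.111) or 2 (0.169). The E-CAD+ call was lost without E-CAD+ 2NG- replicate 3 (FDR = 0.0592) and without OKMS MEF replicate 1 (0.0546) or 2 (0.0886), but was kept without the 7 libraries (FDR = 0.00448), where the gene was at least 13.3-fold higher. Between E-CAD+ and E-CAD- cells, *Eomes* was not called (log2 difference 1.86, SE 0.94, FDR = 0.246), and became so without the 7 libraries (6.25, FDR = 0.00239), without E-CAD- 2NG- replicate 3 (6.42, FDR = 0.00552), or without E-CAD- 3NG- replicate 3 (FDR = 0.0319).

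Genes of the primitive streak were high in the same libraries. *T*, which encodes Brachyury, was at 13.0 and 10.9 CPM in replicate 3 of OKMS E-CAD- 2NG- and 3NG- cells and at 28.4 and 63.6 CPM in replicate 3 of E-CAD+ 2NG- and 3NG- cells, against at most 10.2 CPM in replicates 1 and 2. *Mixl1*, a streak homeobox gene, and *Foxa2*, a gene of endoderm and node, were also highest in replicate 3 in each of these populations. *T* was at most 1.12 CPM in all MKOS sorted libraries, and *Foxa2* had no reads in them. The summed level of the 10 streak and mesoderm genes ranged from 0.322 to 71.4 CPM in OKMS E-CAD+ 2NG- cells and from 2.17 to 8.88 CPM in MKOS 2NG- cells. It was also 40.9 to 64.7 CPM in MEFs, where *T*, *Mixl1*, and *Foxa2* were at or near 0 and *Hand2* and other mesenchymal genes of the list were expressed. Of the 9 genes that could be tested, 0 were called between the cassettes in 2NG-, 3NG-, or 3NG+ cells, with median log2 differences of -1.62, -2.73, and -2.13 against 0.00, 0.01, and 0.01 over all genes. The part of streak-like cells in the *Eomes* result was not tested.

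**Figure D3:**
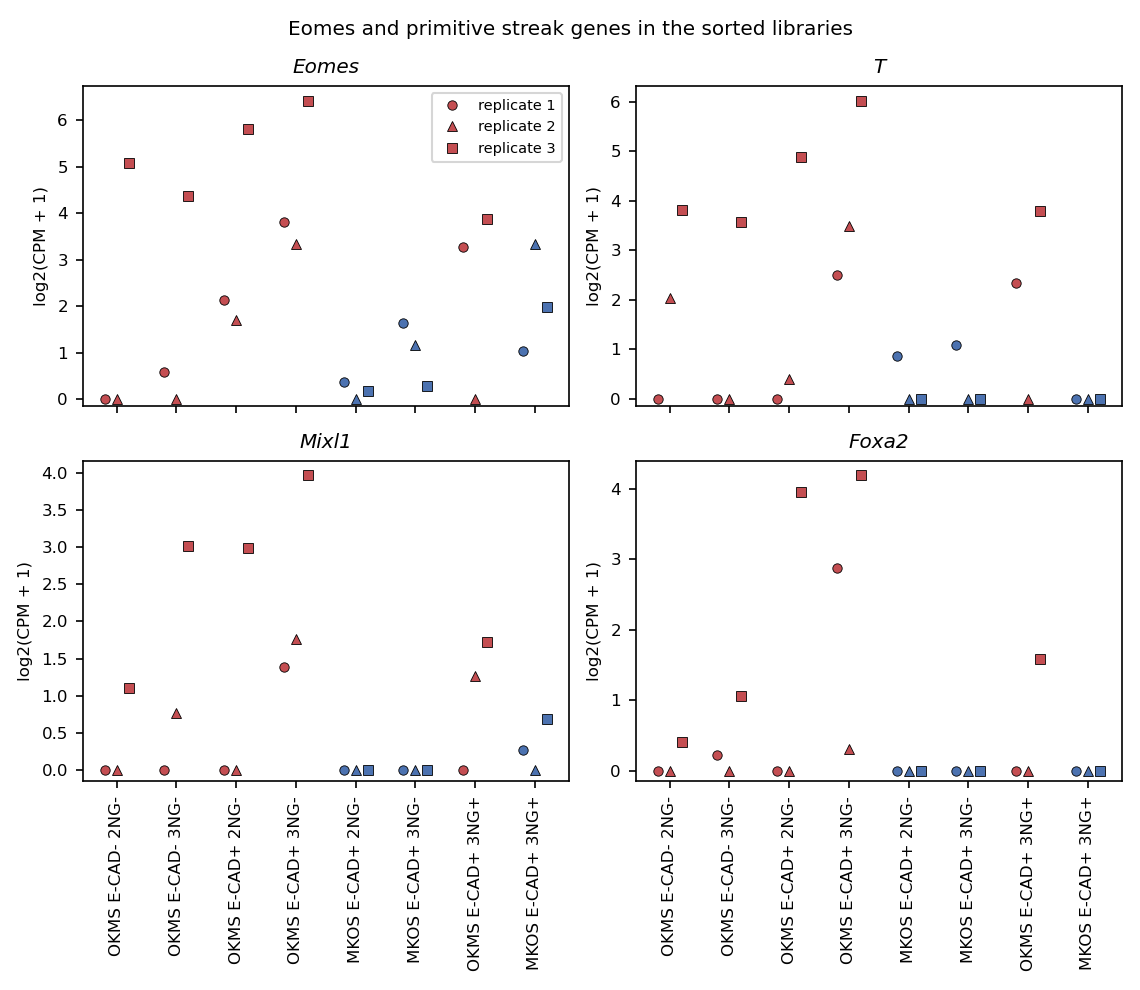
*Eomes* and the streak genes *T*, *Mixl1*, and *Foxa2* in the sorted libraries, as log2(CPM + 1) on the vertical axis, with the replicate number by shape and the cassette by color (OKMS red, MKOS blue). Replicate 3 (squares) holds the highest point of each gene in all 4 OKMS Nanog-GFP- populations, and the MKOS libraries stay at 0 to 9.09 CPM of *Eomes*.

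*Eomes* was still detected in 5 of 6 libraries of 3NG+ cells. From 3NG- to 3NG+ it was not called in either system. The log2 difference was -1.94 in OKMS, with 2 SE on either side reaching from -4.59 to 0.71. In MKOS it was 2.02, reaching from -0.82 to 4.86. *Eomes* was at 8.70, 0, and 13.7 CPM in OKMS 3NG+ cells and at 1.05, 9.09, and 2.98 CPM in MKOS 3NG+ cells, with overlapping libraries. The library at 0 had the fewest reads, with a floor of 2.10 CPM. In iPSCs it was at 0.176 to 4.18 CPM and in ESCs at 0.335 to 3.35 CPM, and every library of these lines held reads of the gene. Among all genes, *Pllp* (r = 0.87), *Samd3* (0.87), and *Lrmp* (0.86) had the profile most like it over the 20 condition means. Among the 6 genes, *Eomes* and *Elf5* had the most similar profiles (r = 0.52).

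*Tfap2c* (chr2:172545678-172558622, + strand), which encodes the transcription factor AP-2γ, rose from MEFs in both systems and was kept in pluripotent cells. It was at 0 in 4 of 6 MEF libraries and at 0.205 and 0.371 CPM in the others. Of its reads, 80.8% mapped to a single position, against at least 99.1% for the other genes, so its level is the least certain in this respect. In OKMS E-CAD+ 2NG- cells it was at 30.0, 27.4, and 15.2 CPM, in OKMS E-CAD- 2NG- cells at 10.2, 12.0, and 2.93 CPM, and in MKOS 2NG- cells at 8.47, 6.50, and 19.9 CPM. The log2 difference from MEFs of the same cassette was 7.27 (SE 1.24, FDR = 1.6e-05) in OKMS E-CAD+, 5.62 (SE 1.23, FDR = 0.000737) in OKMS E-CAD-, and 6.19 (SE 1.23, FDR = 0.000161) in MKOS cells. Since only 2 reads were counted in the MEFs of each cassette, the ratios had wide counting intervals, 145 (40.0 to 1202), 52.8 (14.3 to 441), and 81.7 (22.4 to 678). The call in OKMS E-CAD- cells was lost without OKMS MEF replicate 2 (FDR = 0.0527), and those in both E-CAD+ populations held in all fits without 1 library.

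*Tfap2c* was lowest after MEFs in MKOS 3NG+ cells, at 3.79, 0, and 3.08 CPM, and below all libraries of OKMS 3NG+ cells, at 11.2, 13.3, and 6.87 CPM. It was also below all libraries of MKOS 3NG- cells, at 8.26, 10.5, and 21.4 CPM. Neither difference was called: the log2 difference of MKOS from OKMS in 3NG+ cells was -2.29 (SE 0.75, FDR = 0.16), and that of MKOS 3NG+ from 3NG- cells was -2.35 (SE 0.73, FDR = 0.0868). In 3NG+ cells, 0 of the 6 genes were called between the cassettes by edgeR or DESeq2, against 0.685% of all genes, with 1, *Tfap2c*, at an unadjusted p under 0.05. MKOS iPSCs -dox were at 29.1 and 2.13 CPM, and the difference of MKOS 3NG+ cells from them (log2 difference -2.73, SE 0.78, FDR = 0.0538) rested on replicate 1 of these iPSCs, without which it was 0.12 (FDR = 1.0).

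Since *Tfap2c* also acts in germ cells, 5 germ cell genes were measured beside it. From MEFs of the same cassette, 3 of 5 rose in MKOS 2NG- cells, 3 of 5 in OKMS E-CAD+ 2NG- cells, and 1 of 5 in OKMS E-CAD- 2NG- cells, against 27.0%, 29.2%, and 21.8% of all genes called. *Dppa3*, which is also expressed in pluripotent cells, was called in each. *Prdm14* (FDR = 0.00143) and *Prdm1* (FDR = 0.0139) were also called in MKOS 2NG- cells. In OKMS E-CAD+ 2NG- cells *Prdm1* (FDR = 0.0151) and *Nanos3* (FDR = 0.0337) were. Their summed level was at most 0.981 CPM in MEFs, 15.0 to 22.7 CPM in OKMS E-CAD- 2NG-, 81.2 to 447 CPM in OKMS E-CAD+ 2NG-, and 39.3 to 258 CPM in MKOS 2NG- cells. In OKMS 3NG+ cells it was 530 to 1166 CPM, most of it from *Dppa3*, and in MKOS 3NG+ cells 48.4 to 165 CPM. *Dazl*, the gene of the list not called in any of these comparisons with MEFs beside those named, was at 0 in OKMS E-CAD- 2NG- and MKOS 2NG- cells. The part of such cells in the *Tfap2c* result was not tested.

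In established lines, *Tfap2c* ranged from 2.13 to 47.6 CPM in iPSCs and from 2.96 to 24.3 CPM in ESCs. Replicates of 1 line differed widely, with 24.3 and 4.70 CPM in TNG OKMS ESCs, whereas E14 ESCs had 13.9 and 13.8 CPM. All neighbors in the order of its 20 condition means overlapped. *Slc2a3*, a glucose transporter gene (r = 0.94), *Amt* (0.92), and *Alpl*, the alkaline phosphatase gene used as a marker of pluripotent cells (0.92), had the profile most like it. *Tfap2c* and *Gata3* had the least similar profiles among the 6 genes (r = -0.66).

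*Gata3* (chr2:9857078-9887953, - strand), a zinc-finger factor gene, had its highest levels in MEFs. It was at 6.19 and 5.30 CPM in wt MEFs, 3.28 and 3.32 CPM in MKOS MEFs, and 1.48 and 11.5 CPM in OKMS MEFs. In sorted cells it was at 0 to 4.37 CPM, so the ranges overlapped. Against MEFs of the same cassette, the log2 difference was -1.65 (SE 1.63, FDR = 0.484) in MKOS 2NG-, -1.18 (SE 1.61, FDR = 0.618) in OKMS E-CAD+ 2NG-, and -2.67 (SE 1.67, FDR = 0.264) in OKMS E-CAD- 2NG- cells, and none was called. TNG MKOS ESCs held no *Gata3* reads, and TNG OKMS ESCs were at 0.838 and 1.86 CPM. MKOS and OKMS MEFs together differed from these ESCs by 4.84 on the log2 scale (FDR = 0.0122), a value that depends on the line without reads. This call was lost without TNG MKOS ESC replicate 1 (FDR = 0.0561) or OKMS MEF replicate 2 (0.0512).

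In that comparison of MEFs with ESCs, 3 of the 6 genes were called, where 50.9% of all genes were called. *Gata3* was higher in MEFs, and *Tfap2c* (log2 difference -5.99, SE 0.89, FDR = 4.29e-07) and *Eomes* (FDR = 0.0118) were lower. *Eomes*, with no reads in MEFs, was no longer called without TNG OKMS ESC replicate 2 (FDR = 0.111). *Elf5* and *Cdx2* were at or near 0 on both sides.

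*Cdx2* (chr5:147300900-147307249, - strand), a caudal homeobox gene at the top of the trophectoderm program, had 117 reads in 18 libraries. Its highest means were in iPSCs kept in 2i, medium with inhibitors of MEK and GSK3, with 2.59 and 2.64 CPM in MKOS and 1.06 and 2.99 CPM in OKMS iPSCs. The iPSCs -dox had no reads in any of 4 libraries. This difference was not called (FDR = 0.0721), and no fold is given as the -dox side was at 0. Among the 6 genes, edgeR and DESeq2 called 0 between the 2i and -dox cultures, against 4.34% of all genes, with 1 at an unadjusted p under 0.05. *Cdx1*, the related caudal gene, was among the 3 genes with the profile most like *Cdx2* (r = 0.86), beside *H2-Aa* (0.88) and *Bpifb5* (0.83). The highest condition mean of *H2-Aa* was 2.16 CPM.

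In sorted cells, *Cdx2* was low and uneven. It was highest in replicate 3 of OKMS E-CAD- 3NG- cells, at 3.27 CPM from 12 reads, and of OKMS E-CAD+ 3NG- cells, at 1.88 CPM. MKOS 3NG- cells had 1.01, 0, and 1.03 CPM, and MKOS 2NG- and 3NG+ cells had no reads. Most of these values lie near the floor of 3 reads, and neighbors overlapped throughout the order of the 20 conditions.

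*Hand1* (chr11:57828713-57832147, - strand), a basic helix-loop-helix factor gene, was low throughout. It had 165 reads in 23 libraries and was at most 2.93 CPM, in OKMS E-CAD- 2NG- replicate 3. MKOS MEFs had the highest mean, 1.34 ± 1.58 CPM (SD, n = 2), and all neighbors in the order of conditions overlapped. It was not called in any of the 17 comparisons. *Fam196a* (r = 0.79), *Mbd1* (0.77), and *Btg2* (0.75) had the profile most like it. The highest condition mean of *Fam196a* was 1.79 CPM.

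**Figure D4:**
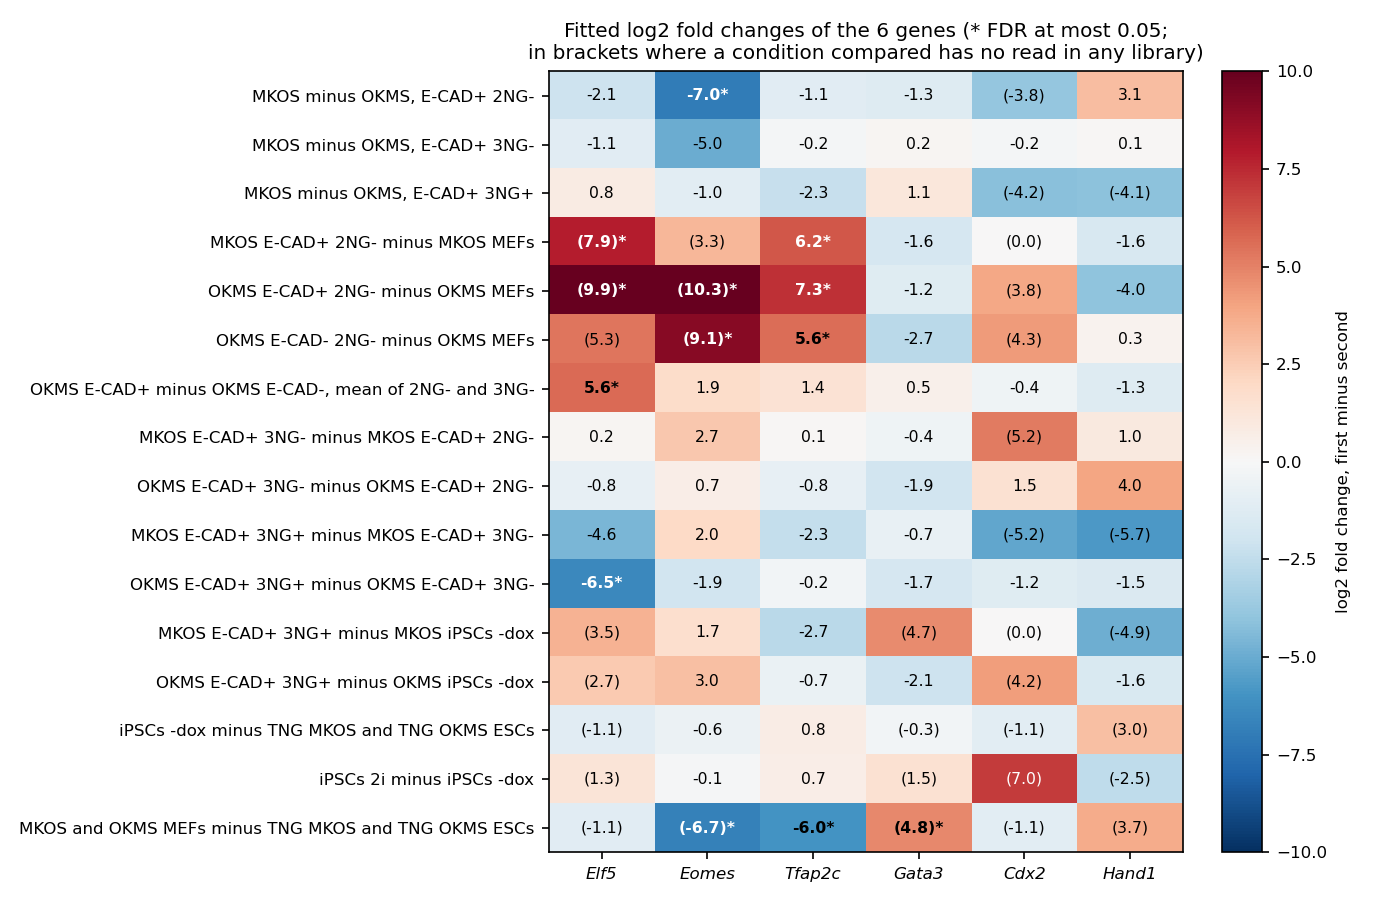
Fitted log2 differences (color scale and printed values) of the 6 genes in 16 comparisons, the first condition minus the second; asterisks mark an FDR of at most 0.05, and brackets mark values that depend on a condition without reads. *Elf5*, *Eomes*, and *Tfap2c* are higher in the OKMS E-CAD+ 2NG- cells than in MEFs, and *Elf5* alone is called between OKMS E-CAD+ and E-CAD- cells (5.63).

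Between 3NG+ cells, iPSCs, and ESCs, calls depended on the tool. From iPSCs -dox to 3NG+ cells, edgeR called 0 of 6 in MKOS, against 2.14% of all genes, and 0 of 6 in OKMS, against 0.614%, with 1 and 0 genes at an unadjusted p under 0.05. DESeq2 called 1, *Tfap2c*, in MKOS (adjusted p = 0.0259) and 0 in OKMS. Between iPSCs -dox and the TNG MKOS and TNG OKMS ESCs, both tools called 0, against 1.4% of all genes, with 0 at an unadjusted p under 0.05. Whether the cassettes differed in how E-CAD+ 2NG- and 3NG- cells departed from MEFs was tested directly as well. No gene of the 6 was called by either tool or had an unadjusted p under 0.05, where 1.43% of all genes were called. For *Tfap2c* the log2 difference of OKMS from MKOS in this change was 0.62 (SE 2.17), for *Gata3* -0.28 (SE 2.11), and for *Hand1* -0.94 (SE 2.37), and for the others it could not be estimated as MEFs had no reads.

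Upstream regulators of the trophoblast moved in both directions. Of 12 such genes, all tested, 7 were called from MEFs to MKOS 2NG- cells, 2 higher and 5 lower, where 27.0% of all genes were called, and 7 from MEFs to OKMS E-CAD+ 2NG- cells, 1 higher and 6 lower, where 29.2% were. *Esrrb*, a nuclear receptor gene of trophoblast and pluripotent stem cells, was higher in both, by 7.02 (SE 0.67) and 7.45 (SE 0.86). *Tead4*, which acts upstream of *Cdx2*, was higher in MKOS 2NG- cells by 3.30 (SE 0.94). *Wwtr1* (a co-activator of Tead factors), *Bmpr1a* (a BMP receptor), and *Klf5* were lower in both, with log2 differences of -1.34 and -2.16, -1.40 and -1.21, and -1.29 and -1.55. MKOS 2NG- cells exceeded OKMS cells in *Bmp4*, a ligand that can direct pluripotent cells toward trophoblast-like fates (log2 difference 3.15, SE 0.61), *Esrrb* (1.90, SE 0.38), and *Wwtr1* (1.27, SE 0.36), which were 3 of 12 called, none lower, against 5.07% of all genes. *Bmp4* and *Esrrb* were also higher with MKOS in 3NG- cells, by 2.64 (SE 0.55) and 1.99 (SE 0.38), and 0 of the 12 were called in 3NG+ cells. From E-CAD- to E-CAD+ OKMS cells, 5 of 12 were called, against 7.08% of all genes, 2 higher (*Esrrb*, 4.34, and *Klf5*, 1.14) and 3 lower (*Bmp4*, -1.33, *Id2*, -1.22, and *Wwtr1*, -0.83).

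Several listed genes of differentiated or extraembryonic trophoblast were higher in reprogramming cells than in MEFs. Of 21 listed genes, 15 could be tested. From MEFs, 8 were called in MKOS 2NG- cells, 7 of them higher, and 6 in OKMS E-CAD+ 2NG- cells, 5 of them higher, against 27.0% and 29.2% of all genes called. The median log2 difference of the 15 genes was 1.78 and 2.52, against 0.00 over all genes. *Krt8* and *Krt18*, keratins of simple epithelium, rose by 7.16 (SE 0.73) and 1.78 (SE 0.49) in MKOS and by 6.17 (SE 0.70) and 2.20 (SE 0.50) in OKMS cells. *Plet1*, a gene of the extraembryonic ectoderm, had no reads in MEFs and was at 67.1, 52.3, and 31.2 CPM in MKOS 2NG- and 49.9, 78.0, and 16.4 CPM in OKMS E-CAD+ 2NG- cells. *Prl2c2*, the proliferin gene of giant cells, was instead a gene of MEFs, at 38.9 to 71.3 CPM in MKOS and OKMS MEFs, and fell by 5.19 in MKOS and by 7.72 in OKMS cells on the log2 scale.

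*Elf5* shared the E-CAD split with several of these genes. Between OKMS E-CAD+ and E-CAD- cells, 7 of the 15 were called, against 7.08% of all genes, all higher in E-CAD+ cells, with a median log2 difference over the 15 of 2.66. They included *Rhox9* (3.30), *Krt18* (3.07), *Krt7* (2.93), *Krt8* (2.89), *Rhox6* (2.77), and *Plet1* (2.72). The cells had been sorted on E-cadherin, an epithelial protein, so these calls, keratins among them, are not independent of the sort. *Krt8* and *Krt18* fell again from 3NG- to 3NG+ cells, by 2.73 and by 2.39 in OKMS and, with the imprinted gene *Peg10* (-1.65), by 1.79 and by 2.49 in MKOS cells, on the log2 scale.

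The gene of this list that separated the cassettes was *Phlda2*, an imprinted gene that restrains placental growth. It was at 150, 182, and 102 CPM in MKOS 2NG- cells and at 1.19, 2.58, and 5.50 CPM in OKMS E-CAD+ 2NG- cells. MKOS was higher than OKMS by 5.30 (SE 0.83) in 2NG-, 4.32 (SE 0.81) in 3NG-, and 3.12 (SE 0.77) in 3NG+ cells on the log2 scale, and *Phlda2* was the 1 of 15 genes called in each, against 5.07%, 2.17%, and 0.685% of all genes. ESCs also expressed it, at 24.1 to 94.6 CPM. Thus, *Phlda2* was called higher with MKOS in each of these populations. *Eomes* was called higher with OKMS by edgeR in 2NG- cells only, and that call was lost without the 7 libraries.

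Some genes restricted to mature trophoblast were at or near 0, but *Gcm1* and *Tpbpa* were not in all libraries. *Ctsq* had no reads in any library, and *Pcdh12*, *Syna*, and *Prl3d1* had 8, 12, and 12 reads in all 48 libraries. *Gcm1*, the regulator of syncytiotrophoblast, was at most 4.86 CPM. *Tpbpa*, a marker of the spongiotrophoblast, had 146 reads in 7 libraries, all of OKMS sorted cells, and reached 20.6 CPM in E-CAD- 2NG- replicate 2. In that library *Elf5*, *Eomes*, and *Cdx2* had no reads, *Tfap2c* was at 12.0 CPM, and *Gata3* and *Hand1* were at 0.687 CPM from 2 reads each.

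**Figure D5:**
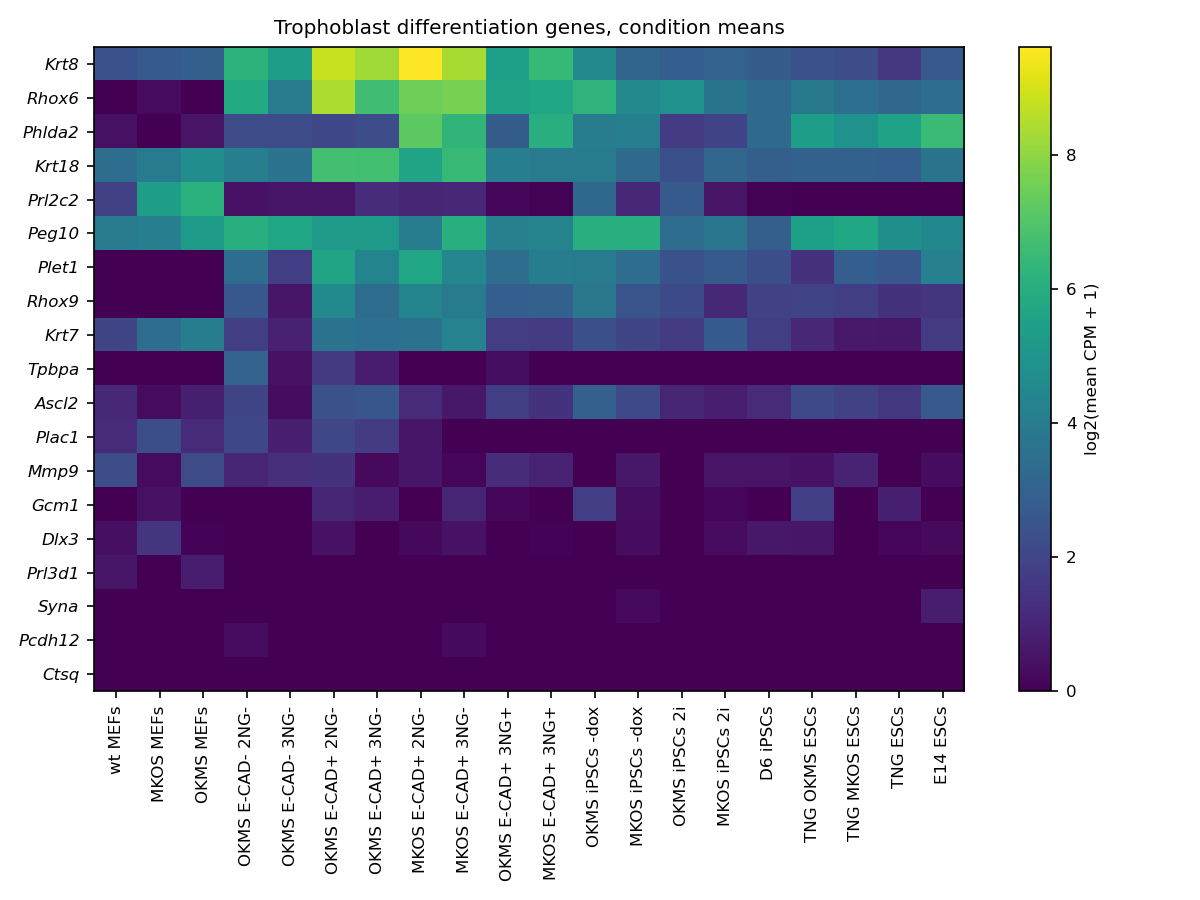
Mean level of trophoblast differentiation genes (rows) in the 20 conditions (columns), as log2(mean CPM + 1) by color. *Krt8*, *Rhox6*, and *Plet1* are bright in E-CAD+ Nanog-GFP- cells of both cassettes, *Phlda2* in MKOS sorted cells and ESCs, and *Prl2c2* in cassette MEFs, while the lower rows, from *Prl3d1* (12 reads) to *Ctsq* (0 reads), are dark.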

How the data were processed

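RNA of 48 libraries from 20 conditions had been sequenced with the STRT method. The deposited counts are raw reads per transcript that the authors made with their STRT pipeline, and per the file headers and methods multiply mapped reads count at their 5′-most exonic hit. Molecular identifiers are not named in the sources used here, so PCR copies were not removed, and floors and counting intervals cover counting error only. The methods name mm9, and the submitters' processing notes name mm10 and Bowtie 0.12.7. Of 20698 shared gene symbols, 98.6% had the recorded position within 100 bases of the gene in RefSeq GRCm38.p6, whose coordinates and sequences are given.

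CPM was computed from 1429717 to 14174725 reads on transcripts per library, without repeats and spike-in RNAs. The 17 comparisons used edgeR 4.0.16 (R 4.3.3) with TMM factors and its default filter, in 1 quasi-likelihood fit of all 48 libraries with 1 coefficient per condition, and p-values were adjusted over 15630 genes by Benjamini-Hochberg. Standard errors (SE) are the log2 difference divided by the square root of the F statistic. P-values measure only the spread between libraries, which may be technical. All 6 genes passed the filter. All were named in every comparison, as were up to 6 called genes per list with the largest change, and the 3 genes with the most similar profile. Other values of *T*, *Mixl1*, *Foxa2*, *Trp63*, *Tpbpa*, *Gcm1*, *Cd44*, and genes near 0 were chosen after they were seen. The members and lists were chosen with earlier results of these data known. Alternatives were DESeq2 1.42.0, its size factors in edgeR, no filter, only the libraries compared, 41 libraries, a replicate block, 2i cultures, and fits without 1 library, which kept the genes and the trended dispersion of the full fit. The values of 1 listed gene are not reported here.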

Additional observations from a re-analysis of the deposited data

How the results depend on the processing

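With DESeq2 size factors in edgeR, the counts of called genes stayed within 1.5 times in all 17 comparisons. The other settings changed the number of the 6 genes called as follows, and the cause was not tested. Between MKOS and OKMS, the count in 2NG- cells was 0 without the 7 libraries, the count in 3NG- cells was 1 (*Eomes*) with DESeq2, with no filter, and with only the libraries compared, and that in 3NG+ cells was 1 (*Tfap2c*) with no filter. From OKMS MEFs to E-CAD- 2NG- cells it was 1 without the 7 libraries, with only the libraries compared, and with a replicate block. Between OKMS E-CAD+ and E-CAD- cells it was 3 with no filter, 2 with only the libraries compared, and 2 without the 7 libraries. From MKOS 3NG- to 3NG+ it was 1 with DESeq2 and 2 with no filter. From MKOS iPSCs to 3NG+ cells it was 1 (*Tfap2c*) with DESeq2, with no filter, without the 7 libraries, and with 2i iPSCs, and between 2i iPSCs and ESCs it was 1 (*Cdx2*). *Cdx2* in MKOS iPSCs 2i was at 2.52 CPM with TMM effective library sizes in place of 2.62 CPM.

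With 1 library left out, counts ranged from 0 to 1 between the cassettes in 2NG- cells, 1 to 2 from MEFs to MKOS 2NG-, 2 to 3 to OKMS E-CAD+ 2NG-, 0 to 2 to OKMS E-CAD- 2NG- cells, 1 to 2 between OKMS E-CAD+ and E-CAD- cells, 0 to 1 from OKMS 3NG- to 3NG+, 0 to 1 from MKOS iPSCs to 3NG+ cells, and 2 to 3 between MEFs and ESCs, and were 0 in the other 9 comparisons. Signs turned for *Tfap2c* in MKOS 3NG+ cells against iPSCs (-3.61 to 0.12, the latter without iPSC replicate 1), for *Gata3* in OKMS E-CAD+ 2NG- cells against MEFs (-2.03 to 0.70, the latter without MEF replicate 2), and for *Peg10* in 3NG+ cells against 2i iPSCs (0.63 in MKOS, 0.99 in OKMS, against -1.76 and -1.95 with iPSCs -dox).

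Replicate numbers were shared between sorted populations. Deviations of same-numbered libraries correlated with a mean of 0.10 (-0.06 to 0.44), over 0.1 in 36 of 84 pairs, against a mean of -0.05 for other pairs, and 21 of 24 libraries correlated best with their own number, a hint from the data and not from the design. With the replicate block, *Eomes* was no longer called in OKMS E-CAD- 2NG- cells against MEFs (FDR = 0.0756), and the other 26 of 27 tests of the 6 genes kept their call. Depth limits statements on *Cdx2* and *Hand1*, whose levels lie near the floor.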

Other observations

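Some conditions enter no comparison. The iPSC line D6 had *Tfap2c* at 30.0 and 15.4 CPM and *Eomes* at 0.828 and 3.68 CPM, and no *Elf5* reads. *Gata3* was at 1.76 and 1.93 CPM in D6 iPSCs and at 2.07 and 2.44 CPM in TNG ESCs, above its level of 0.398 and 0.496 CPM in E14 ESCs.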
